A study of Mus musculus with 2 samples.

Results

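Cells described here are 775 Cxcr3-expressing Treg-enriched cells, 513 from lymph node and 262 from spleen, among 11363 cells kept from 11919 deposited cell barcodes. They came from 2 droplet libraries, 1 per tissue, of flow-sorted CD4+ CD25+ cells of healthy female Mycfl/flFoxp3Cre/WT mice, which carry floxed Myc and 1 Foxp3 allele with Cre, so that Myc-deficient and Myc-sufficient Treg cells share an animal. YFP+ and YFP- cells were sorted together and encapsulated in 1 lane with the 10x 3' V2 chemistry, and every group described here shares that genotype and sort. The sources used here give neither the YFP status and the animal of each cell nor the age and number of the animals. A cell was a member if it had at least 500 detected genes, at most 10% mitochondrial unique molecular identifiers (UMIs), at least 1 Cxcr3 UMI, at least 1 UMI of Foxp3, ICRE or Ikzf2, no Cd8a or Cd8b1 UMI, and fewer than 3 summed UMIs of Cd79a, Cd79b and Ms4a1. ICRE, like EYFP and CRE, is a feature added to the deposited gene list, and its meaning is not stated. Cells that met the same conditions without a Cxcr3 UMI, called Cxcr3-undetected cells, numbered 2478 in the lymph node and 3434 in the spleen. Members were thus chosen by their measured UMIs of Cxcr3 and of the other genes of the rule, and Cxcr3, Foxp3, ICRE, Ikzf2 and the B cell and CD8 genes of the rule are given as a description only.

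CXCR3 is a chemokine receptor that couples to inhibitory G proteins and guides T cells toward CXCL9, CXCL10 and CXCL11, chemokines made in tissues exposed to interferon gamma. In regulatory T (Treg) cells, the T-box factor T-bet, encoded by Tbx21, is known to promote CXCR3 expression, and CXCR3+ Treg cells are known for restraining type 1 inflammation. Treg cells depend on the transcription factor Foxp3, which lies on the X chromosome. A female with Cre in 1 of its 2 copies is a mosaic of cells that use the Cre allele and cells that use the wild-type allele.

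With 1 library per tissue there is no replicate and no test, and cells of 1 library are not replicates. Levels are UMIs summed over cells and scaled to a common total (CPM). Every interval is an exact 95% interval for counting error only. The libraries held 13324306 UMIs in the lymph node and 16868549 UMIs in the spleen. Members were deeper than the cells they are set against, with a median of 3220 UMIs against 1991 UMIs in the lymph node and 3602 UMIs against 2045 UMIs in the spleen. Deeper cells have more chances to show a Cxcr3 UMI, so ratios are also given after weighting the Cxcr3-undetected cells to the members' UMIs per cell, which has no interval. The libraries shared 53 barcodes, 1 of them among members.

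Most members carried very little Cxcr3. A single Cxcr3 UMI was found in 290 lymph node members (56.5%) and 163 spleen members (62.2%), and the highest cells had 12 UMIs and 9 UMIs. Summed over members, the Cxcr3 level was 469 CPM in the lymph node and 375 CPM in the spleen, and it was 0 by definition in Cxcr3-undetected cells. The gene lies at chrX:101731535-101734269 on the minus strand of GRCm38. Of the Treg conditions, Ikzf2, which encodes the Treg-associated factor Helios, was met most often, in 91.4% of lymph node and 90.5% of spleen members. Ikzf2 was the sole one of the 3 transcripts in 53.4% of lymph node and 44.7% of spleen members, against 59.6% and 57.6% of Cxcr3-undetected cells. Foxp3 UMIs were present in 44.4% of lymph node members against 27.8% of Cxcr3-undetected cells, and in 53.8% against 28.7% in the spleen. After each cell was thinned to 1200 UMIs, the same shares were 20.8% against 16.01% and 22.6% against 16.3%.

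Cxcr3 was detected in a larger share of Treg-enriched cells in the lymph node than in the spleen. The share was 17.2% (15.8% to 18.6%, 513 of 2991 cells) in the lymph node and 7.09% (6.28% to 7.96%, 262 of 3696) in the spleen. When cells were thinned to 1200 UMIs before the rule was applied, it was 8.90% (7.77% to 10.1%) and 3.13% (2.52% to 3.84%). Cells with no Foxp3, ICRE or Ikzf2 UMI had lower shares, 8.29% in the lymph node and 1.93% in the spleen at full depth. After thinning they had 6.14% (5.14% to 7.27%) and 1.87% (1.41% to 2.43%), and here too the lymph node was the higher tissue. Cells were classed after thinning, and this class grew from 1448 to 2052 lymph node and from 2331 to 2888 spleen cells. It thus took in cells whose Foxp3, ICRE or Ikzf2 UMIs were lost in thinning.

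Some of these UMIs have to be read against the level in B cells, which should largely lack the receptor. B cells had a Cxcr3 UMI in 11.8% (6.45% to 19.4%, 13 of 110) of lymph node and 3.77% (1.04% to 9.38%, 4 of 106) of spleen cells, at medians of 3120 and 2338 UMIs. After thinning, 0 of 81 lymph node B cells had one, which allows a share of up to 3.70% by 3 counts and 4.45% by the exact interval, and 1 of 86 spleen B cells did (1.16%, 0.0294% to 6.31%). The lymph node share of Treg-enriched cells stood clear of its B cell interval after thinning, and the spleen share did not, so the spleen share could not be told from that of B cells at this depth. It did lie above that of the spleen cells with no Foxp3, ICRE or Ikzf2 UMI, whose interval ended at 2.43%. Cells below 1200 UMIs, 252 in the lymph node and 525 in the spleen, could not be thinned, among them 9 lymph node and 5 spleen members.

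Within the Treg-enriched cells, detection differed with the transcript that met the Treg condition. Cells with Foxp3 and no ICRE UMI had a Cxcr3 UMI in 25.2% (22.4% to 28.1%) of the lymph node and 12.97% (11.03% to 15.1%) of the spleen. Cells with ICRE and no Foxp3 UMI had one in 3.40% (1.71% to 5.99%) and 0.846% (0.231% to 2.15%), 11 of 324 and 4 of 473 cells. The medians of these cells were 1597 and 1606 UMIs, against 2787 and 2851 UMIs for the cells with Foxp3 and no ICRE UMI. Thinned to 1200 UMIs, the Foxp3 cells had 12.3% (9.50% to 15.5%) in the lymph node and 3.91% (2.50% to 5.81%) in the spleen. The thinned ICRE cells had 2.18% (0.713% to 5.02%, 5 of 229) in the lymph node and 1.21% (0.330% to 3.07%, 4 of 331) in the spleen. The intervals of these ICRE cells overlap those of the thinned B cells, and in the spleen also that of the thinned Foxp3 cells. The plot of Cxcr3 detection by population sets these shares side by side at full and equal depth.

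**Figure D1:**
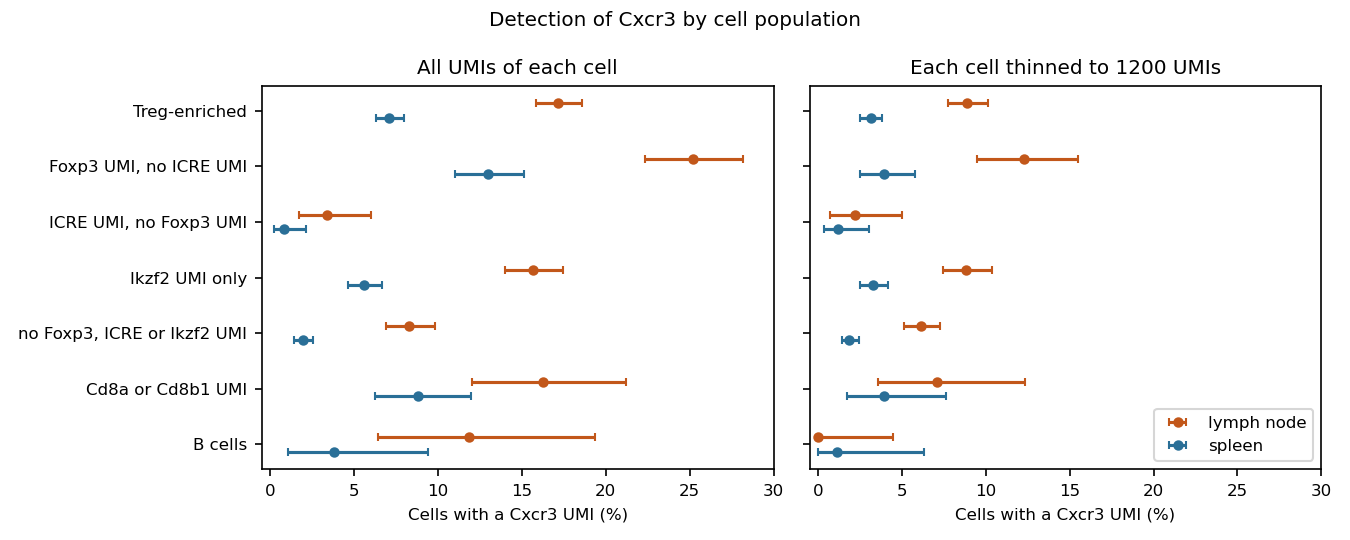
Share of cells with at least 1 Cxcr3 UMI (x axis, percent) by cell population (rows) in lymph node (orange) and spleen (blue), with exact 95% intervals; the left panel uses all UMIs and the right panel cells thinned to 1200 UMIs before they were classed. Treg-enriched cells sat at 17.2% and 7.09% at full depth and at 8.90% and 3.13% after thinning.

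Markers proposed for these cells are Cxcr3, Serpina3g, Cst7, Nrp1 and Nt5e. They were proposed with earlier results of these data known, so their levels are a description and no independent support. Of the 4 that the rule had not used, 1, Serpina3g, was at least 1.5-fold higher in members in both libraries, against 3.82% of all tested genes. Serpina3g, an intracellular serine protease inhibitor of lymphocytes, stood at 90.9 CPM in members and 30.2 CPM in Cxcr3-undetected cells of the lymph node, and 59.6 and 23.8 CPM in the spleen. Its ratios were 3.01 (95% interval 2.45 to 3.70) in the lymph node and 2.51 (1.88 to 3.30) in the spleen, and 3.12 and 2.09 after depth weighting. Cst7, which encodes the protease inhibitor cystatin F, was at 138 CPM in members and 142 CPM in Cxcr3-undetected cells of the lymph node, and 126 and 70.8 CPM in the spleen, so it was past 1.5-fold in the spleen only. Nrp1, the semaphorin co-receptor neuropilin-1, was at 101 CPM in members and 92.4 CPM in Cxcr3-undetected cells of the lymph node, and 128 and 86.1 CPM in the spleen. Nt5e, which encodes the adenosine-producing enzyme CD73, was at 55.4 CPM in members and 55.7 CPM in Cxcr3-undetected cells of the lymph node, and 70.7 and 51.5 CPM in the spleen. In the lymph node the last 3 genes had intervals of the ratio that included 1. At 1200 UMIs per cell, at least 2 of the 4 were seen together in 7.34% (5.22% to 9.98%) of lymph node members against 4.02% (3.26% to 4.90%) of Cxcr3-undetected cells, and in 4.67% (2.44% to 8.01%) against 2.99% (2.43% to 3.64%) in the spleen. The spleen intervals overlap.

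Across 5110 genes with a mean of at least 20 CPM, 195 (3.82%) were at least 1.5-fold higher in members in both libraries and 72 (1.41%) at least 1.5-fold lower. In the lymph node alone 271 genes (5.3%) were higher and 196 (3.84%) lower, and in the spleen 406 (7.95%) and 190 (3.72%), so the shared genes were 72.0% of the lymph node and 48.0% of the spleen genes on the higher side, and 36.7% and 37.9% on the lower side. With the depth weighting, 52 genes (1.02%) were higher and 20 (0.394%) lower, of which 44 and 17 were among the 195 and 72. With cells thinned before the rule, 274 (5.33%) were higher and 141 (2.74%) lower, of which 70 and 34 were among them. That setting left 203 lymph node and 89 spleen members at 1200 UMIs each. Its calls, here and in the lists below, thus rest on few UMIs. The counts of each gene list below are set beside the shares of all tested genes. Scaling to totals without ribosomal protein, mitochondrial and haemoglobin genes gave 205 higher and 147 lower genes, so the higher side made up 58.2% of the calls and not 73.0%. Ribosomal protein genes took 32.2% of UMIs in members against 33.7% in Cxcr3-undetected cells of the lymph node, and 29.6% against 33.3% in the spleen.

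**Figure D2:**
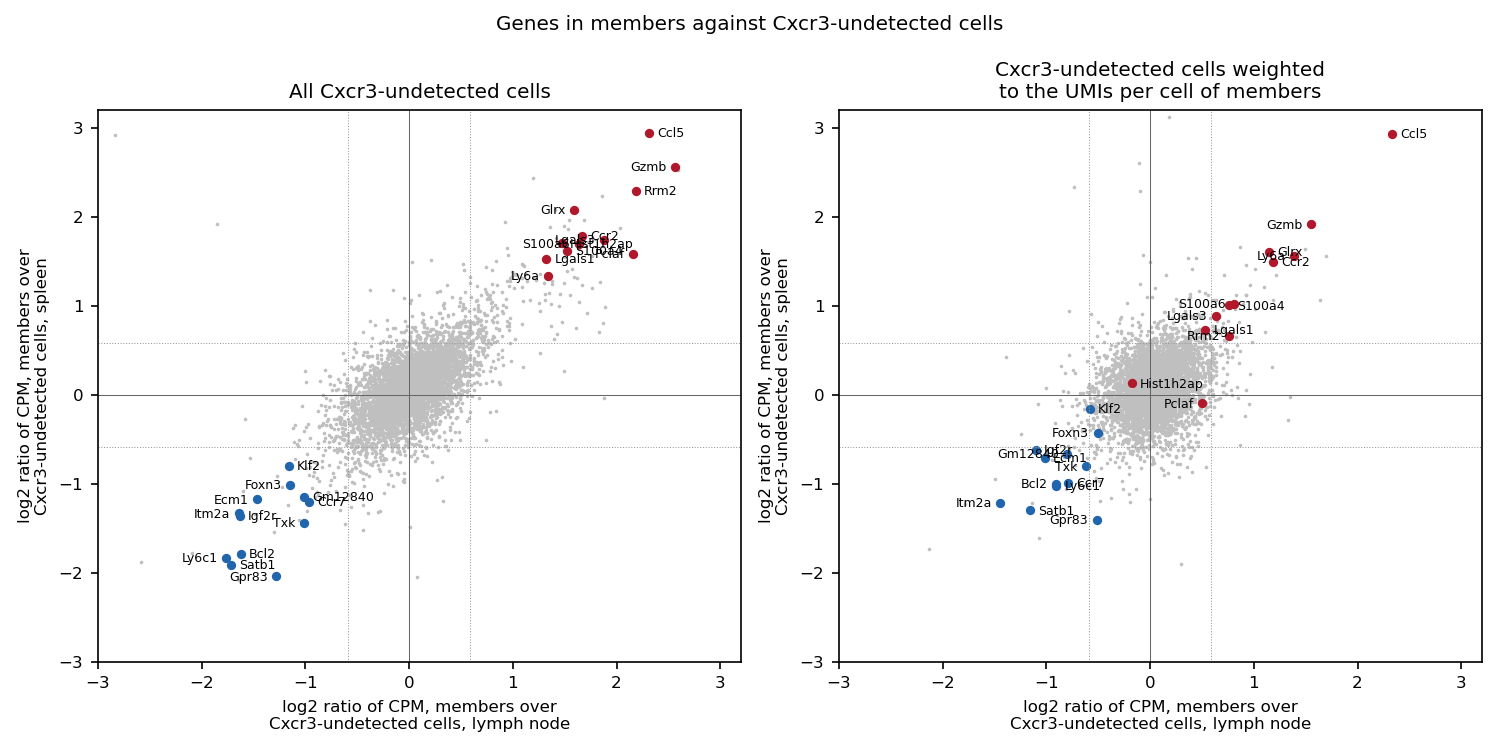
Log2 ratio of CPM in members over Cxcr3-undetected cells for 5110 genes (grey points), lymph node on the x axis and spleen on the y axis, with the named higher genes in red and lower genes in blue; dotted lines mark 1.5-fold. On the left all Cxcr3-undetected cells are used and on the right they are weighted to the members' depth, where Ccl5, Gzmb, Glrx, Ccr2 and Ly6a stay far from 0 and Hist1h2ap and Pclaf come close to it.

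Ccl5 and Gzmb were the genes farthest above the Cxcr3-undetected cells by the naming rule. Ccl5, a chemokine of effector and memory T cells (chr11:83525778-83530518, minus strand), had 286 CPM in members and 57.3 CPM in Cxcr3-undetected cells of the lymph node, and 251 and 32.6 CPM in the spleen. Its ratios were 4.98 (95% interval 4.36 to 5.70) in the lymph node and 7.69 (6.52 to 9.08) in the spleen, and they were 5.05 and 7.66 with depth weighting. Ccl5 was concentrated in a minority of the cells. UMIs came from 97 of 513 lymph node and 62 of 262 spleen members, and the highest cell gave 12.6% of them in the lymph node and 21.4% in the spleen. Gzmb, the cytotoxic protease granzyme B (chr14:56258838-56262260, minus strand), had 85.3 CPM in members and 14.4 CPM in Cxcr3-undetected cells of the lymph node, and 134 and 22.5 CPM in the spleen. The ratios of 5.91 (95% interval 4.56 to 7.70) in the lymph node and 5.93 (4.78 to 7.34) in the spleen came down to 2.93 and 3.78 with depth weighting. Gzmb UMIs were found in 8.19% of lymph node and 14.1% of spleen members, against 1.33% and 1.78% of Cxcr3-undetected cells, and cells with UMIs of both Ccl5 and Gzmb made up 2.34% and 5.34% of members against 0.161% and 0.379%.

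The type 1 programme was only partly higher. Of its 24 listed genes 13 reached 20 CPM, of which 2, Ccl5 and Runx3, were higher in both libraries and 1, Ifngr2, was lower, against 3.82% and 1.41% of all tested genes. The medians of the log2 ratio over the 13 genes were 0.40 and 0.34 in lymph node and spleen, beside 0.02 and 0.07 over all tested genes. With depth weighting the list medians were 0.45 and 0.46, with 2 genes higher and 1 lower in both libraries. With cells thinned before the rule they were 0.42 and 0.77, with 4 genes higher and 1 lower. Tbx21 itself lay below the 20 CPM minimum. It stood at 9.69 CPM in members and 2.30 CPM in Cxcr3-undetected cells of the lymph node, from 21 UMIs in 19 members, and at 5.96 and 1.57 CPM in the spleen, from 7 UMIs in 3 members, 5 of which came from 1 cell. The ratios were 4.21 (95% interval 2.04 to 8.96) in the lymph node and 3.79 (1.30 to 10.0) in the spleen. Runx3, a factor that acts with T-bet in type 1 lymphocytes, had 46.1 CPM in members and 27.8 CPM in Cxcr3-undetected cells of the lymph node, and 40.9 and 25.9 CPM in the spleen. Its ratios were 1.52 and 1.22 with depth weighting, and in the spleen 0.803 with cells thinned before the rule, so its call was lost in both settings. Ifngr2, the signalling chain of the interferon gamma receptor, was 3.11-fold lower (95% interval 2.13 to 4.70) in the lymph node and 4.25-fold lower (2.46 to 8.04) in the spleen. Nkg7, a granule protein gene of cytotoxic lymphocytes, had ratios of 2.40 (95% interval 2.10 to 2.73) in the lymph node and 1.38 (1.19 to 1.596) in the spleen, so it passed 1.5-fold in the lymph node only.

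CXCR3 signalling genes were close to their level in Cxcr3-undetected cells. Of 13 measured genes, 1 (7.69%, against 3.82% of all tested genes) was higher in both libraries, Gng2, a G protein gamma subunit. It was at 73.8 CPM in members and 38.4 CPM in Cxcr3-undetected cells of the lymph node, and 94.5 and 53.1 CPM in the spleen. With depth weighting the Gng2 ratios were 1.51 and 1.45, and no gene of the list passed in both libraries. Gnai2, the main inhibitory G protein alpha subunit of lymphocytes, had ratios of 1.25 (95% interval 1.16 to 1.34) in the lymph node and 1.35 (1.23 to 1.47) in the spleen. Rgs1 and Rgs10, which shorten G protein signals, had ratios of 0.788 and 0.711 in the lymph node and 0.686 and 0.805 in the spleen, and Rgs1 was at 1.12 and 0.979 with depth weighting. Dpp4, the surface peptidase that trims CXCR3 ligands, had ratios of 1.11 (95% interval 0.822 to 1.49) in the lymph node and 1.08 (0.740 to 1.54) in the spleen, whose intervals include 1.

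Among 16 trafficking receptors, 4 were higher in both libraries (Cd44, Itgb1, Ccr2 and Itgae) and 1 lower (Ccr7), or 25.0% and 6.25% against 3.82% and 1.41% of all tested genes. The list medians were 0.26 and 0.17, and 3 genes were higher and 1 lower with depth weighting. Ccr2, which directs cells to inflamed tissue, had 98.2 CPM in members and 30.9 CPM in Cxcr3-undetected cells of the lymph node, and 138 and 40.0 CPM in the spleen, and its ratios were 3.18 (95% interval 2.60 to 3.89) in the lymph node and 3.44 (2.84 to 4.16) in the spleen. Depth weighting left 2.27 and 2.81. Itgae, the CD103 integrin chain that binds epithelial E-cadherin, had 41.5 CPM in members and 16.7 CPM in Cxcr3-undetected cells of the lymph node, and 123 and 55.6 CPM in the spleen. Itgb1, the beta 1 integrin, had ratios of 2.31 (95% interval 2.04 to 2.61) in the lymph node and 2.49 (2.15 to 2.86) in the spleen. Ccr7, which brings T cells into lymph nodes, was 1.95-fold lower (95% interval 1.68 to 2.27) in the lymph node and 2.30-fold lower (1.95 to 2.72) in the spleen, at 97.3 CPM in members and 190.0 CPM in Cxcr3-undetected cells of the lymph node, and 131 and 301 CPM in the spleen.

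Core Treg genes gave few calls, and none with depth weighting. Of 15 measured identity genes 1 was higher and 2 were lower in both libraries, which is 6.67% and 13.3%, against 3.82% and 1.41% of all tested genes, and the medians of the log2 ratio were -0.06 and -0.04. Capg, an actin-capping protein gene, was higher in both libraries at ratios of 1.67 and 1.78. Lrrc32, which encodes the TGF-beta docking receptor GARP, was 1.505-fold lower (95% interval 1.21 to 1.88) in the lymph node and 1.58-fold lower (1.21 to 2.10) in the spleen. Gpr83, a receptor gene expressed by Treg cells, was 2.43-fold lower (95% interval 1.98 to 2.99) in the lymph node and 4.12-fold lower (3.01 to 5.79) in the spleen. Depth weighting left Gpr83 1.43-fold and 2.64-fold lower, and none of the 15 genes then passed 1.5-fold in both libraries on either side. Il2ra, which encodes the sorting marker CD25, was at 105 CPM in members and 154 CPM in Cxcr3-undetected cells of the lymph node, and 127 and 207 CPM in the spleen. Its ratios of 0.684 in the lymph node and 0.612 in the spleen passed 1.5-fold on the lower side in the spleen only. With depth weighting they were 0.933 and 0.842, nearer to 1, and with cells thinned before the rule 0.801 and 0.478. Suppressor effectors stood out more, with 5 of 10 measured genes higher in both libraries and none lower, against 3.82% of all tested genes, and medians of the log2 ratio of 0.66 and 0.78, or 0.40 and 0.62 with depth weighting. They were Gzmb, Lgals1, Fgl2, Icos and Ebi3. Depth weighting left 3 of the 5, with Lgals1 at 1.44 and Ebi3 at 1.39 in the lymph node. Among cells with a Foxp3 and no ICRE UMI, 3 of the 10 genes were higher, with medians of 0.22 and 0.22. Fgl2, a secreted fibrinogen-like suppressor protein, had 43.4 CPM in members and 15.4 CPM in Cxcr3-undetected cells of the lymph node, and 74.1 and 19.9 CPM in the spleen, with depth-weighted ratios of 2.82 and 3.11. Icos, the inducible costimulator, had 176 CPM in members and 101 CPM in Cxcr3-undetected cells of the lymph node, and 418 and 205 CPM in the spleen. Ebi3, a chain of interleukin 35, had 33.2 CPM in members and 17.7 CPM in Cxcr3-undetected cells of the lymph node, and 28.9 and 15.3 CPM in the spleen.

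The S100, galectin and annexin list, calcium- and lipid-binding genes that mark activated and migratory T cells, was higher almost as a whole. Of 14 measured genes 11 were at least 1.5-fold higher in both libraries, against 3.82% of all tested genes, and none lower, with medians of the log2 ratio of 0.81 and 1.17. Depth weighting brought the medians to 0.47 and 0.72 and the count to 5 genes. S100a4 had 586 CPM in members and 204 CPM in Cxcr3-undetected cells of the lymph node, and 796 and 259 CPM in the spleen, with ratios of 2.87 (95% interval 2.65 to 3.10) in the lymph node and 3.08 (2.85 to 3.32) in the spleen, or 1.70 and 2.01 with depth weighting. S100a6 had 1054 CPM in members and 339 CPM in Cxcr3-undetected cells of the lymph node, and 1424 and 440.3 CPM in the spleen, with depth-weighted ratios of 1.75 and 2.03. Lgals1, the secreted galectin-1, had 1581 CPM in members and 633 CPM in Cxcr3-undetected cells of the lymph node, and 2401 and 833 CPM in the spleen, with depth-weighted ratios of 1.44 and 1.66. Lgals3, galectin-3, had 89.5 CPM in members and 24.3 CPM in Cxcr3-undetected cells of the lymph node, and 129 and 38.4 CPM in the spleen, with depth-weighted ratios of 1.55 and 1.86. Depth weighting thus brought all 4 genes nearer to the Cxcr3-undetected cells. These transcripts were not in every member: S100a4 UMIs were found in 30.4% of lymph node and 43.9% of spleen members, against 12.2% and 13.8% of Cxcr3-undetected cells.

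Ly6a and Glrx, also named as higher, lie outside these lists. Ly6a, the surface protein Sca-1, had 459.9 CPM in members and 182 CPM in Cxcr3-undetected cells of the lymph node, and 485 and 192 CPM in the spleen, with ratios of 2.53 (95% interval 2.32 to 2.76) in the lymph node and 2.52 (2.29 to 2.78) in the spleen and 2.62 and 2.95 after depth weighting. Glrx, the thiol reductase glutaredoxin-1, had 249 CPM in members and 82.9 CPM in Cxcr3-undetected cells of the lymph node, and 304 and 71.8 CPM in the spleen, with ratios of 3.004 (95% interval 2.66 to 3.40) in the lymph node and 4.23 (3.71 to 4.83) in the spleen and 2.22 and 3.04 after depth weighting. For both genes depth weighting left a ratio over 2 in each library.

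Interferon and helper programmes gave a few genes each, at shares that differed between the lists. Of 19 measured interferon gamma GTPase and antigen presentation genes, 3 were higher (Gbp3, Irf8 and Iigp1) and 1 lower (Socs1). These are 15.8% and 5.26%, against 3.82% and 1.41% of all tested genes. The list medians of the log2 ratio were 0.31 and 0.31, or 0.36 and 0.50 with depth weighting. Iigp1, a GTPase induced by interferon gamma, had 55.4 CPM in members and 30.4 CPM in Cxcr3-undetected cells of the lymph node, and 59.6 and 35.6 CPM in the spleen, with depth-weighted ratios of 2.28 and 2.10. Irf8, an interferon-responsive factor, had ratios of 1.96 and 2.42, though 28.1% of its spleen member UMIs came from 1 cell. Socs1, which restrains cytokine receptors, was 1.85-fold lower (95% interval 1.57 to 2.19) in the lymph node and 2.13-fold lower (1.74 to 2.63) in the spleen, or 1.18-fold and 1.44-fold with depth weighting. Of 25 type I interferon genes 1 (4%) was higher and 1 (4%) lower. Oas1a, a sensor of viral RNA, was higher at ratios of 2.34 (95% interval 1.69 to 3.22) in the lymph node and 2.44 (1.64 to 3.56) in the spleen. Slfn5 was lower, a call lost with depth weighting. Among 4 measured type 2 and type 17 genes, 2 (50%) were higher, Maf and Rora, factors shared by several effector Treg states. Maf had 169 CPM in members and 90.6 CPM in Cxcr3-undetected cells of the lymph node, and 157 and 70.4 CPM in the spleen. No gene of the 3 measured follicular genes, the 8 measured adenosine and NAD enzymes or the 8 measured Gimap GTPases passed 1.5-fold in both libraries, and with depth weighting 1 Gimap gene did, on the higher side.

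Protease and glycolysis lists gave few calls, though a larger share than all tested genes, and the growth list gave none. Of 14 measured serpins, cystatins and cathepsins, 2 (14.3%, against 3.82% of all tested genes) were higher, Serpina3g and Lgmn, the asparaginyl protease legumain. With depth weighting 1 gene of this list was higher, with cells thinned before the rule 4 were, and without cycling cells 5 were. The list medians of the log2 ratio were 0.32 and 0.56, or 0.18 and 0.48 with depth weighting. Of 14 glycolysis genes 2 (14.3%) were higher, Pgk1 and Gapdh, with medians over the list of 0.44 and 0.40, or 0.20 and 0.08 with depth weighting. The glycolytic kinase gene Pgk1 had ratios of 1.75 and 1.58, and no gene of the list passed 1.5-fold in both libraries with depth weighting. None of 15 Myc and growth genes passed in both libraries. Myc itself, the gene floxed in these animals, had 31.4 CPM in members and 36.5 CPM in Cxcr3-undetected cells of the lymph node, and 28.9 and 42.7 CPM in the spleen, with ratios of 0.860 (95% interval 0.646 to 1.13) in the lymph node and 0.677 (0.462 to 0.963) in the spleen. Where the floxed part lies is not stated, so these tags check no deletion, and 0 lymph node and 2 spleen UMIs of the EYFP feature were counted in all barcodes.

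Genes of the cell cycle were higher in members at full depth, and few of them were with depth weighting. Of 24 cycle and replication genes 21 passed 1.5-fold on the higher side in both libraries, against 3.82% of all tested genes, with medians of the log2 ratio of 1.38 and 1.17. With depth weighting 1 gene passed and the medians were 0.17 and -0.07, and with cells thinned before the rule 9 genes passed. Rrm2, a subunit of the enzyme that makes deoxyribonucleotides, had 127 CPM in members and 27.9 CPM in Cxcr3-undetected cells of the lymph node, and 209 and 42.8 CPM in the spleen, and its ratios of 4.54 (95% interval 3.74 to 5.53) in the lymph node and 4.89 (4.15 to 5.75) in the spleen came down to 1.69 and 1.58. Pclaf, a PCNA-binding replication factor, had 217 CPM in members and 48.6 CPM in Cxcr3-undetected cells of the lymph node, and 211 and 70.2 CPM in the spleen, with depth-weighted ratios of 1.41 and 0.936. Hist1h2ap, a replication-dependent histone whose near-identical copies make its counts uncertain, had ratios of 2.77 (95% interval 2.56 to 3.001) in the lymph node and 3.26 (2.89 to 3.66) in the spleen and depth-weighted ratios of 0.885 and 1.09. Cells with at least 2 UMIs of 7 cycle genes made up 7.99% (5.80% to 10.7%) of members against 1.82% (1.33% to 2.42%) of Cxcr3-undetected cells in the lymph node, and 10.3% (6.90% to 14.6%) against 2.59% (2.09% to 3.18%) in the spleen. The 7 genes were Mki67, Top2a, Birc5, Cdk1, Ccna2, Rrm2 and Pclaf. Members with at least 2 of their UMIs had medians of 10981 and 9449 UMIs. Without these cells on both sides, 115 genes (2.28%) were higher and 51 (1.01%) lower in both libraries, 91 and 42 of them shared with the sets above.

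On the lower side, the resting T cell genes stood out. Of 16 measured genes 9 were at least 1.5-fold lower in both libraries, against 1.41% of all tested genes, and none higher, with medians of the log2 ratio of -0.94 and -0.82, or -0.55 and -0.38 with depth weighting, where 5 genes passed. The 9 were Lef1, Bach2, Foxp1, Klf2, Tcf7, Igfbp4, Ccr7, Ly6c1 and Satb1. Satb1, a chromatin organiser of resting T cells, had 49.8 CPM in members and 164 CPM in Cxcr3-undetected cells of the lymph node, and 40.0 and 151 CPM in the spleen, which is 3.30-fold lower (95% interval 2.70 to 4.06) in the lymph node and 3.76-fold lower (2.82 to 5.15) in the spleen. Depth weighting left it 2.23-fold and 2.46-fold lower. Ly6c1, a surface protein of resting and memory T cells, had 36.4 CPM in members and 124 CPM in Cxcr3-undetected cells of the lymph node, and 30.6 and 109 CPM in the spleen, and was 1.87-fold and 2.04-fold lower with depth weighting. Klf2, which maintains homing and egress receptors, had 475 CPM in members and 1060.4 CPM in Cxcr3-undetected cells of the lymph node, and 594 and 1033 CPM in the spleen, and was 1.497-fold and 1.12-fold lower with depth weighting. Igfbp4, a binding protein of insulin-like growth factors, had 5.07 CPM in members and 21.7 CPM in Cxcr3-undetected cells of the lymph node, and 29.8 and 102 CPM in the spleen.

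The other genes named as lower were more varied. Bcl2, the survival factor, had 224 CPM in members and 690.3 CPM in Cxcr3-undetected cells of the lymph node, and 237 and 818 CPM in the spleen, which is 3.08-fold lower (95% interval 2.803 to 3.39) in the lymph node and 3.46-fold lower (3.07 to 3.91) in the spleen and 1.88-fold and 2.004-fold lower with depth weighting. Itm2a, a membrane protein induced during T cell development, had 43.8 CPM in members and 137 CPM in Cxcr3-undetected cells of the lymph node, and 72.4 and 182 CPM in the spleen. Igf2r, the mannose 6-phosphate receptor, was 3.10-fold lower (95% interval 2.36 to 4.14) in the lymph node and 2.57-fold lower (1.89 to 3.58) in the spleen, or 2.15-fold and 1.54-fold with depth weighting. Ecm1, a secreted matrix protein, Txk, a Tec family kinase, Foxn3, a forkhead repressor, and the predicted gene Gm12840 had ratios between 0.362 and 0.496 in the lymph node and between 0.369 and 0.497 in the spleen. With depth weighting these ranges were 0.494 to 0.704 and 0.573 to 0.744, and Foxn3 no longer passed. Jun, a subunit of the AP-1 factor, was the single one of 23 immediate early and T cell receptor response genes to pass in both libraries. That is 4.35% of the list, against 1.41% of all tested genes. Jun was 1.90-fold lower (95% interval 1.598 to 2.27) in the lymph node and 1.89-fold lower (1.53 to 2.35) in the spleen. With depth weighting, 0 of these 23 genes passed.

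**Figure D3:**
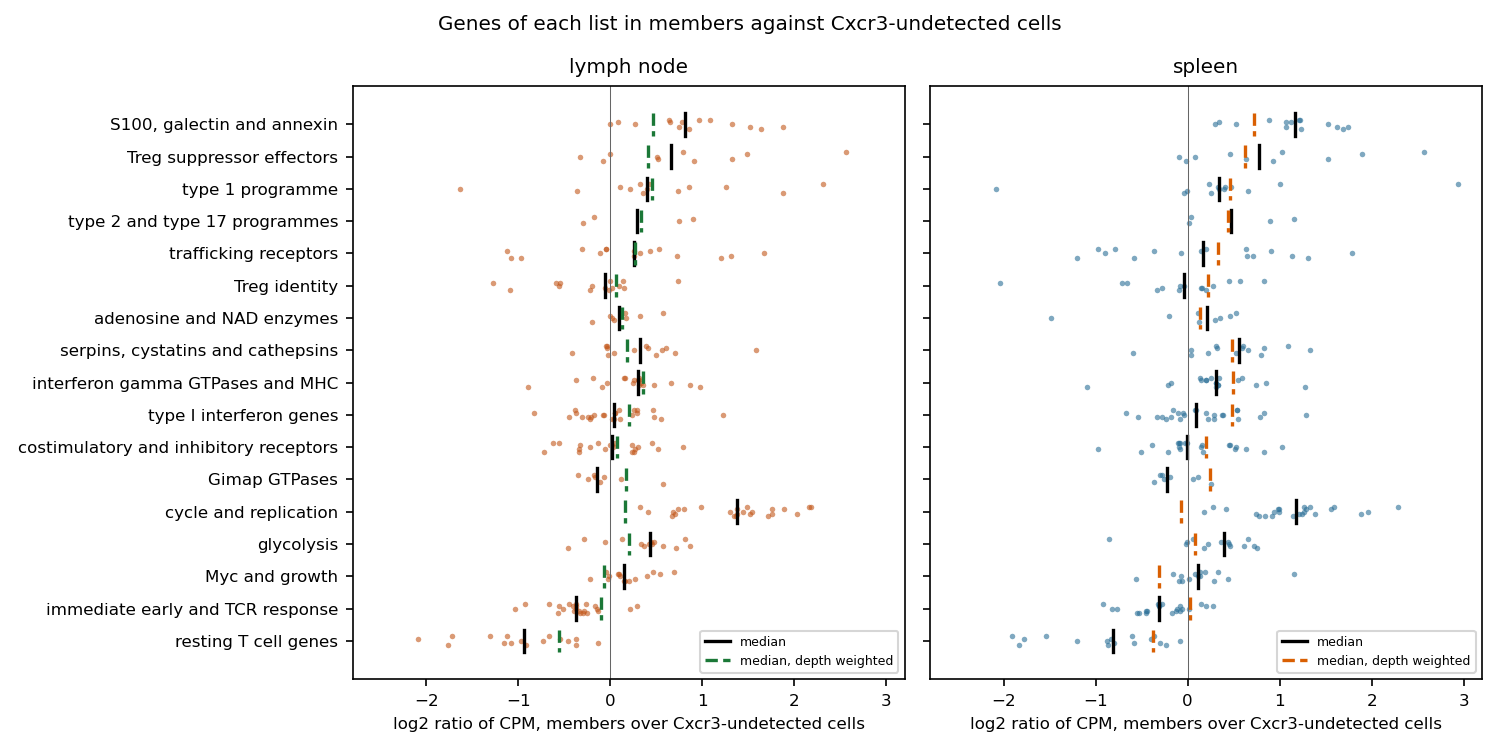
Log2 ratio of CPM in members over Cxcr3-undetected cells (x axis) for each measured gene of 17 lists (rows), lymph node left and spleen right; solid bars are list medians and dashed bars medians with depth weighting. The S100 list has medians of 0.81 and 1.17 and the resting T cell genes -0.94 and -0.82, and the dashed bar of the cycle genes lies near 0.

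Members with more Cxcr3 UMIs differed from those with 1, although they were also deeper, with medians of 2873 and 3899 UMIs per cell in the lymph node and 3461 and 3934 UMIs in the spleen for 1 and at least 2 Cxcr3 UMIs. Over cells with 0, 1 and at least 2 Cxcr3 UMIs, S100a4 was at 204, 285 and 853 CPM in the lymph node and 259, 591 and 1079.9 CPM in the spleen. Gzmb was at 14.4, 26.5 and 137 CPM in the lymph node and 22.5, 106 and 173 CPM in the spleen. Glrx was at 82.9, 154 and 333 CPM in the lymph node and 71.8, 194 and 457 CPM in the spleen. These genes were highest in the cells with at least 2 UMIs in both tissues. A different pattern held for Serpina3g, at 30.2, 100.1 and 82.7 CPM and 23.8, 58.7 and 60.9 CPM, where the cells with 1 UMI and with more had overlapping intervals. Ccl5, at 57.3, 243 and 323 CPM in the lymph node and 32.6, 287 and 201 CPM in the spleen, was higher at 2 or more UMIs than at 1 in the lymph node and lower in the spleen. This order is limited by single cells. The highest member gave 78 of 619 Ccl5 UMIs in the lymph node and 63 of 295 in the spleen. Among the lower genes, Bcl2 was at 690.3, 298 and 158 CPM and 818, 298 and 152 CPM, and Ly6c1 at 124, 55.0 and 20.01 CPM and 109, 39.6 and 18.3 CPM. Both were lower in each class than in the one before, although the spleen intervals of Ly6c1 at 1 and at least 2 UMIs overlap. Klf2, at 1060.4, 451 and 496 CPM and 1033, 598 and 589 CPM, took its step between 0 and 1 UMI.

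**Figure D4:**
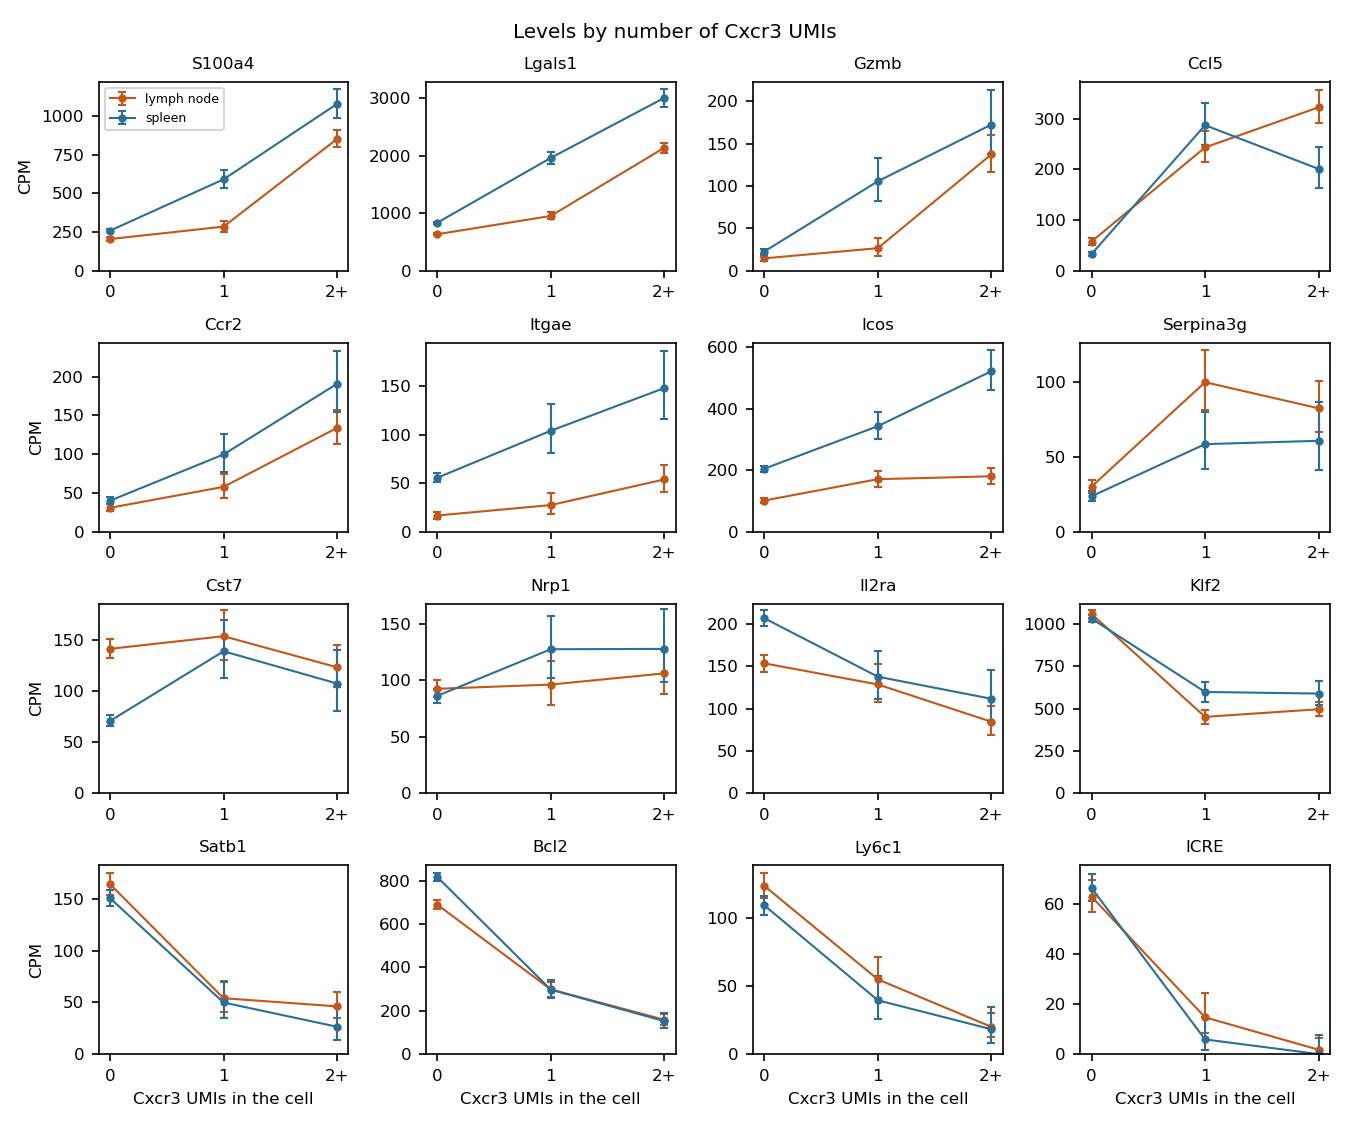
Level in CPM (y axis, linear from 0) of 16 transcripts in Treg-enriched cells with 0, 1 and at least 2 Cxcr3 UMIs (x axis), lymph node in orange and spleen in blue, with exact 95% counting intervals. S100a4, Lgals1 and Gzmb are highest at 2 or more UMIs, Bcl2 and Ly6c1 lowest there, and Serpina3g is level between 1 UMI and more.

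ICRE transcripts were scarce in members. Among summed ICRE and Foxp3 UMIs, ICRE made up 4.58% (2.69% to 7.24%, 17 of 371) in lymph node members against 28.9% (26.4% to 31.4%, 384 of 1330) in Cxcr3-undetected cells. In the spleen it made up 1.64% (0.448% to 4.14%, 4 of 244) against 29.9% (27.9% to 32.0%, 593 of 1983). Both transcripts are part of the rule, so these shares are a description. Cxcr3-undetected cells weighted to the members' depth had 12.6% and 13.3%, a smaller gap than at full depth, with the members still below. Thinning before the rule gave 8.11% in lymph node members against 34.0%, and 13.3% in spleen members against 36.6%, from few UMIs in members. By Cxcr3 UMIs, members with 1 had 7.32% in the lymph node and 2.82% in the spleen, and those with at least 2 had 1.20% and 0 of 102, which allows up to 2.94% by 3 counts and 3.55% by the exact interval. B cells, which should hold neither transcript, had 8 ICRE UMIs of 33 in the lymph node (24.2%, 11.1% to 42.3%) and 3 of 20 in the spleen (15.0%, 3.21% to 37.9%).

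The same description was made by S100a4 detection, at full depth only. Cells with an S100a4 UMI had medians of 3889.5 UMIs in lymph node members against 2813 UMIs in Cxcr3-undetected cells, and 4157 against 2953 UMIs in the spleen. Members with an S100a4 UMI had 0 of 124 in the lymph node, which allows up to 2.42% by 3 counts and 2.93% by the exact interval, and 0 of 125 in the spleen, which allows up to 2.40% and 2.91%, against 8.50% and 7.41% in Cxcr3-undetected cells with an S100a4 UMI. Members without one had 6.88% and 3.36%, against 32.5% and 35.2%. When both sides were limited to cells with a Foxp3 and no ICRE UMI, 139 genes (2.75%) were higher and 51 (1.01%) lower in both libraries, 96 and 31 of them shared with the sets above.

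**Figure D5:**
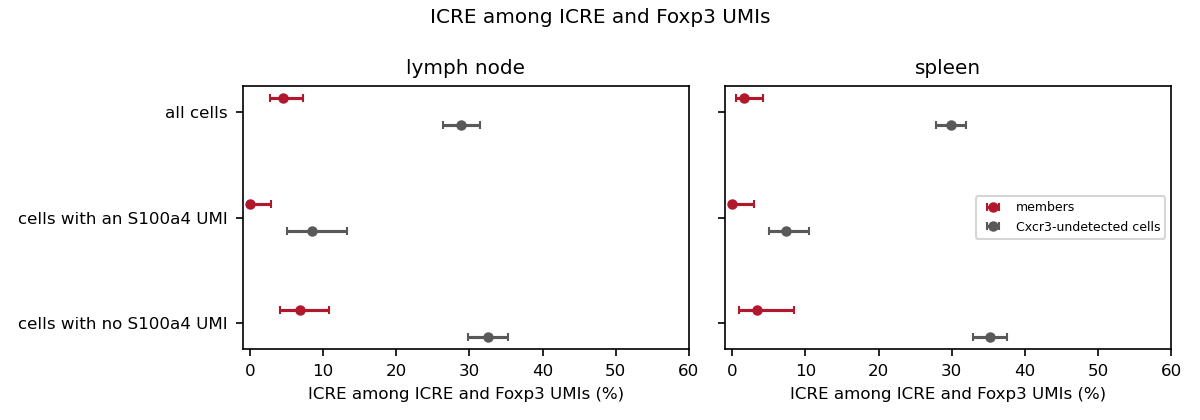
ICRE as a share of ICRE and Foxp3 UMIs (x axis, percent) in members (red) and Cxcr3-undetected cells (grey), over all cells and within cells with or without an S100a4 UMI, with exact 95% intervals. In all 3 rows and both tissues the members lie below, at 4.58% and 1.64% over all cells.

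Lymph node members and spleen members differed from each other in 154 genes (3.01%) at least 1.5-fold higher in the lymph node and 273 (5.34%) at least 1.5-fold lower. Dtx1, a regulator of Notch signalling, had 112 CPM in lymph node members and 23.8 CPM in spleen members, 4.68-fold (3.16 to 7.20) higher. Gimap7, a lymphocyte survival GTPase, had 351 and 111 CPM, and Itga4, the alpha 4 integrin, 89.9 and 23.8 CPM. Art2b, an ADP-ribosyltransferase of T cells, had 84.9 and 7.66 CPM. The same direction was present in Cxcr3-undetected cells, which had 96.4 CPM of Dtx1 in the lymph node and 29.7 CPM in the spleen. Spp1, the secreted protein osteopontin, was at 55.8 and 2.55 CPM in members and 7.88 and 2.58 CPM in Cxcr3-undetected cells.

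Itgae was 2.95-fold (2.25 to 3.89) lower in lymph node members, at 41.5 CPM against 123 CPM in spleen members, and Icos was 2.38-fold (2.08 to 2.73) lower. Apol9b, an apolipoprotein L family gene, was at 11.1 against 70.7 CPM. Cxcr3-undetected cells had the same direction, with Itgae 3.32-fold, Icos 2.02-fold and Apol9b 5.08-fold lower in the lymph node. H2-Ab1, H2-Eb1, H2-Aa and Cd74, MHC class II and associated genes, were also named as lower in lymph node members. For Cd74, 1 cell gave 406 of the 812 UMIs of spleen members. The summed UMIs of H2-Ab1, H2-Eb1 and H2-Aa, called MHC class II UMIs, were 411 in spleen members, and 1 cell held 390 of them. Without barcodes of at least 10 such UMIs, the spleen log2 ratio of H2-Aa in members over Cxcr3-undetected cells was -0.32. The same cell held 221 of 406 Cst3 UMIs and 27 of 96 Irf8 UMIs of spleen members. Hbb-bs, a haemoglobin gene, had 70.6 CPM in lymph node members and 0.851 CPM in spleen members, and 255 and 0.224 CPM in Cxcr3-undetected cells.

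Cxcr3-positive cells without a Foxp3, ICRE or Ikzf2 UMI, 120 in the lymph node and 45 in the spleen, had another mix of transcripts. Gzmb was at 85.3 CPM in lymph node members against 6.05 CPM in these cells, and at 134 against 6.23 CPM in the spleen. The values of 6.05 and 6.23 CPM rest on 3 UMIs and 1 UMI, with upper bounds of 17.7 and 34.7 CPM. S100a4 was at 586 against 133 CPM and 796 against 87.2 CPM. Cxcr6, a receptor of tissue-resident lymphocytes, ran the other way, at 48.4 against 212 CPM and 34.9 against 125 CPM. Id2, a factor of effector and innate lymphocytes, likewise had 271 against 928 CPM and 219.6 against 324 CPM. Ccl5 had 286 against 633 CPM in the lymph node and 251 against 31.1 CPM in the spleen, so its order differed between the tissues. The value of 31.1 CPM rests on 5 UMIs (10.1 to 72.6 CPM), and 1 cell gave 21.4% of the Ccl5 UMIs of spleen members.

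Markers of other cell types are given beside these results as summed levels. The 13 NK and CD8 T cell markers, which include Ccl5 and Nkg7, summed to 531 CPM in members against 188 CPM in Cxcr3-undetected cells of the lymph node and 513 against 202 CPM in the spleen, with Klra8 and Klre1 at 0 in every group. The 10 myeloid markers summed to 411 against 424 CPM and 759 against 553 CPM, with S100a8 and S100a9 at 0. The 12 B cell markers summed to 1124 against 787 CPM and 2082 against 723 CPM, led by Ighm, and Ebf1, Cd22 and Bank1 were at 0 in spleen members. A single cell gave 406 of the 812 Cd74 UMIs of spleen members, and without barcodes of at least 10 MHC class II UMIs the spleen median of the log2 ratio over the 6 measured B cell markers was 0.76 and not 2.50. The 7 erythroid markers summed to 128 against 561 CPM in the lymph node and 14.5 against 2.69 CPM in the spleen, and the 6 plasma cell markers to 84.9 against 80.8 CPM and 118 against 114 CPM. The part of such cells or of free RNA in the ratios was not tested.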

How the data were processed

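UMI counts per gene and cell barcode are the authors' deposited filtered matrices, 1 for each of 2 libraries, made with Cell Ranger 3.0.1 and the mm10 build, per the submitters' processing notes. No doublet caller was run, and 556 of 11919 barcodes were left out for fewer than 500 genes or over 10% mitochondrial UMIs. Members and gene lists were chosen with earlier results of these data known.

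Counts were summed over the cells of a group and divided by the group's total (CPM). Ratios carry exact conditional intervals, shares exact Clopper-Pearson intervals and levels exact Poisson intervals, all at 95%. A count of 0 was set to 3 UMIs of the group for a ratio. Genes were tested for size only: a mean of at least 20 CPM, and at least 1.5-fold in both libraries, with the genes of the member rule left out. Depth weighting put Cxcr3-undetected cells into 10 bins of the members' UMIs per cell, with each bin given its share of members. Thinning drew 1200 UMIs per cell without replacement. For ICRE among ICRE and Foxp3 UMIs, the unit is the UMI.

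The text names the 12 genes on each side with at least 50 CPM whose weaker interval bound lay farthest from 1, up to 4 genes per list, 6 genes on each side of the tissue comparison, and the proposed markers. Cxcr6 and Id2, and the cells outside the Treg condition, were chosen after their values were seen. Coordinates are of GRCm38. Alternatives varied the gene minimum, mitochondrial limit, Cxcr3 minimum, Treg condition, depth, scaling and level minimum. The steps were checked on simulated counts. Python 3.11.15, numpy 2.4.6, scipy 1.17.1, pandas 2.3.3 and matplotlib 3.10.9 were used.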

Additional observations from a re-analysis of the deposited data

Results flagged for a closer look

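Ikzf2, which encodes Helios and is 1 of the 3 transcripts of the Treg condition, had opposite directions in the tissues. The log2 ratio of members over Cxcr3-undetected cells was -0.29 in the lymph node, from 846 CPM against 1031 CPM, and 0.19 in the spleen, from 1089 CPM against 954 CPM. With 1 library per tissue the difference between the tissues was not tested, and since Ikzf2 is part of the rule its levels are a description.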

How the results depend on the processing

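With 1 library per tissue, there was no replicate to leave out, and the spread between animals is unknown. No paired analysis was possible because each tissue has 1 library and the labels give no replicate numbers. Depth limits most values: members rest on 513 and 262 cells, and an absent Cxcr3 UMI does not show that a cell lacked the transcript. Causes of the moves below were not tested.

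The share of Treg-enriched cells with Cxcr3, 17.2% in the lymph node and 7.09% in the spleen, was 8.90% and 3.13% with cells thinned before the rule, 7.46% and 2.68% with at least 2 Cxcr3 UMIs, 19.3% and 9.06% with a Foxp3 or ICRE UMI required, 21.5% and 9.16% with at least 800 genes, and 15.2% and 5.66% without the highest 6% of cells by UMIs. The lymph node was the higher tissue in each.

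The ICRE share in members was 8.11% in the lymph node and 13.3% in the spleen with cells thinned before the rule, 1.20% and 0% with at least 2 Cxcr3 UMIs, and 5.71% in the spleen with thinning after it. In Cxcr3-undetected cells it was 37.0% and 38.5% with thinning, 34.0% and 36.6% with thinning before the rule, 12.6% and 13.3% with depth weighting, 21.1% and 22.2% with at least 800 genes, and 32.8% in the spleen without the highest 6% by UMIs. Members were below in every one of these settings.

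The count of 195 genes higher in both libraries became 52 with depth weighting, 126 without the highest 6% by UMIs, 115 without cycling cells (a setting added after the data were seen), 94 at a minimum of 50 CPM and 894 with no minimum. The count of 72 lower genes became 141 with thinning before the rule, 20 with depth weighting, 164 with at least 2 Cxcr3 UMIs, 147 with totals without ribosomal protein, mitochondrial and haemoglobin genes, 30 at 50 CPM and 394 with no minimum.

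Directions turned for few named genes, given below as log2 ratios, but many more ratios changed in size. Depth weighting moved 106 named gene ratios and left 82 labelled the same. Thinning before the rule moved 120 and left 64 labelled the same. Without the highest 6% by UMIs the lymph node gave -0.62 for Ccna2, -1.21 for Hist1h2ap, -0.68 for Pclaf, -0.10 for Ran and -0.24 for the median of the cycle list, and the spleen gave -0.26 for H2-Aa and -0.10 for Tbx21. Depth weighting gave -0.18 for Hist1h2ap in the lymph node, and -0.095 for Pclaf and -0.073 for the cycle median in the spleen. Without cycling cells Hist1h2ap was at -0.16 and -0.58, Rrm2 at -0.20 in the lymph node and Pclaf at -0.074 in the spleen. Rrm2 and Pclaf are among the genes that define cycling cells, so their drop in that setting was fixed by the choice of cells. Thinning before the rule gave -0.55 for Hist1h2ap, 0.40 for Lrrc32, -0.33 for Ran, -0.39 for Tpi1 and 0.26 for the erythroid median in the lymph node, and -0.32 for Runx3 and 0.023 for Slfn5 in the spleen. In the spleen, H2-Aa was at -0.59 with at least 2 Cxcr3 UMIs and at -0.32 without barcodes of at least 10 MHC class II UMIs (also added after the data were seen), the B cell median at -0.22 with at least 2 Cxcr3 UMIs, and Lag3 at -0.077 with at least 800 genes.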

Other observations

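Ighm, the immunoglobulin mu heavy chain gene, was the B cell marker highest in members, at 800 CPM against 507 CPM in Cxcr3-undetected cells of the lymph node and 985 CPM against 423 CPM in the spleen. At 1200 UMIs per cell, an Ighm UMI was found in 58.9% of lymph node and 63.0% of spleen members, against 35.1% and 30.4% of Cxcr3-undetected cells. Its part in the other ratios was not tested.

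Lymph node cells with a Cxcr3 UMI and a Cd8a or Cd8b1 UMI, 44 in all and no members, had 595 CPM of S100a4 and 248 CPM of Ccl5, beside 586 CPM and 286 CPM in lymph node members. The 36 such spleen cells had 922 CPM of S100a4, 156 CPM of Ccl5 and 214 CPM of Gzmb, beside 796, 251 and 134 CPM in spleen members.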
